A study of Solea senegalensis with 8 samples.

Results

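The step from the 20-somite stage to hatching in Senegalese sole was described with 4 of the 8 small RNA libraries of the study, all miRNAs of the table included. The tissues were whole larvae taken on hatching, called Hatch, and whole embryos with 20 somites, called 20S. Each stage had a library from eggs incubated at 15°C and another from eggs incubated at 21°C, and these temperatures were the only treatment. Eggs came from natural spawning of captive broodstock, and every library was a pool of triplicate samples, so a stage at a given temperature had no replicate library. Of the 320 miRNAs, 301 had at least 1 read in these 4 libraries, 232 were read in all 4, and 19 were not read in any.

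miRNAs are short RNAs cut from hairpin precursors that lower the translation and stability of mRNAs matching their seed. Between the 20-somite stage and hatching a fish embryo forms striated muscle, neurons and the first gut and liver tissue, and its egg-derived mRNAs have long been replaced by its own. In zebrafish the miR-430 family removes those maternal mRNAs, while the families of miR-1, miR-133 and miR-206 belong to muscle and miR-9, miR-124 and their like to the nervous system. miRNAs of muscle, neurons, skin, eye and gut were read in all 4 libraries.

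The Hatch libraries held 4312425 trimmed reads at 15°C and 3256433 at 21°C, and the 20S libraries 3320266 and 2564327. The 320 miRNAs together took 24.9% and 30.5% of the trimmed reads at Hatch, against 23.1% and 22.3% at 20S. Their summed reads are the miRNA total used below. At least 1 read was found for 272 and 270 miRNAs at Hatch and for 254 and 254 at 20S. The paper gives more annotated reads and more conserved miRNAs for each of these libraries. With a minimum of 1000 reads the numbers were 87 and 85 at Hatch and 60 and 52 at 20S, in libraries that were also deeper at Hatch. The reads were spread over more miRNAs at Hatch, where the 5 most abundant took 32.0% and 42.7% of the miRNA reads, against 52.2% and 52.9% at 20S.

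The miR-430 family took a smaller part of the miRNA pool after hatching, with 6.90% and 4.71% of the miRNA reads at Hatch (15°C and 21°C), against 24.5% and 25.6% at 20S. The muscle miRNAs took 5.94% and 5.73% at Hatch and 2.06% and 1.02% at 20S. miR-10 and miR-196, which lie within the Hox clusters, took 11.3% and 9.55% at Hatch and 5.42% and 5.26% at 20S. For these 3 groups the Hatch and 20S libraries did not overlap, which also held for most of the other groups described below. Among those, eye and sensory miRNAs took 7.13% and 6.40% at Hatch against 5.10% and 3.78% at 20S. The miR-17-92 list took 13.2% and 11.5% at Hatch against 15.6% and 16.1% at 20S. The miR-130 group (miR-130, its relatives miR-301 and miR-454) did overlap, with 17.2% and 29.8% at Hatch against 21.5% and 16.8% at 20S, as did the miRNAs of skin and epithelia with 14.5% and 12.3% against 13.1% and 18.4%.

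**Figure D1:**
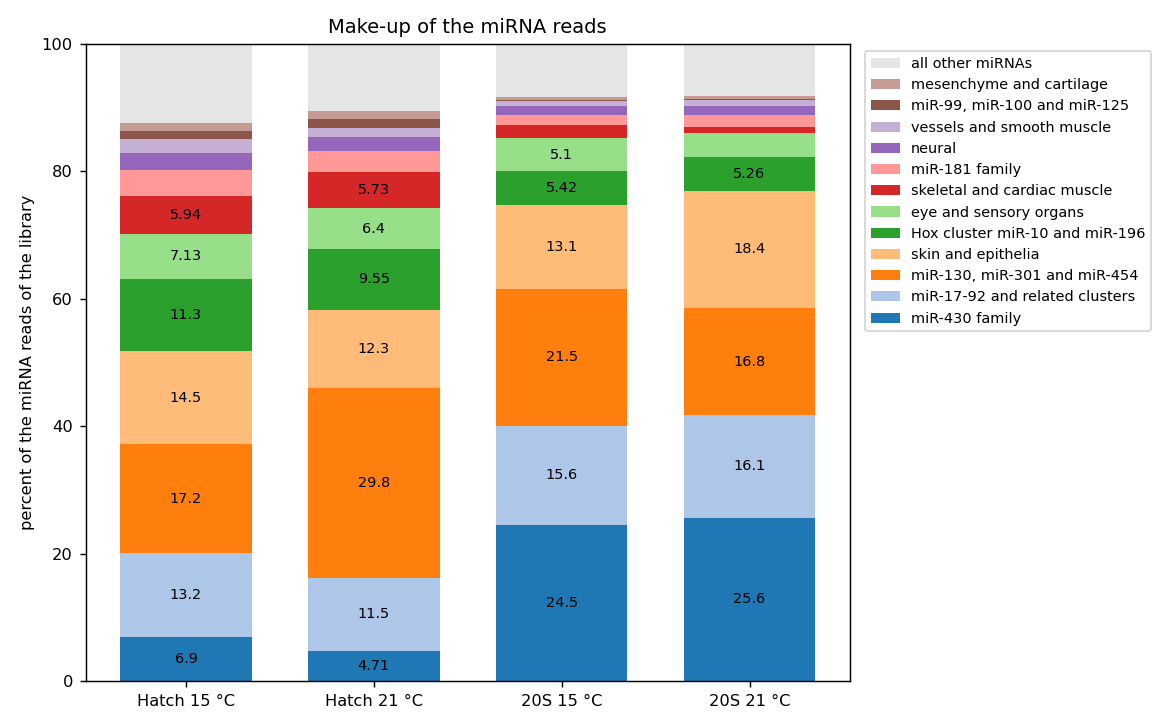
Percent of the miRNA reads of each library (vertical axis) taken by 12 groups of miRNAs, as stacked bars for the Hatch libraries at 15 °C and 21 °C and the 20S libraries at 15 °C and 21 °C. The miR-430 band at the foot is 6.90% and 4.71% in the Hatch libraries and 24.5% and 25.6% in the 20S libraries.

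Stages were compared with limma on the deposited log2 percent of trimmed reads, with all 8 libraries in the model, stage and temperature as terms, and p-values adjusted by the method of Benjamini and Hochberg over 295 miRNAs that had reads in 2 or more libraries. Of these, 4 rose at Hatch over 20S (1.36%) and 0 fell, while 44 were higher and 3 lower at an unadjusted p under 0.05. limma-voom on the recovered reads called 2 that rose and 0 that fell. Rescaled to the miRNA total of each library, 8 rose (2.71%) and 0 fell, with 45 higher and 6 lower at an unadjusted p under 0.05. The median miRNA was 0.80 higher on the log2 scale at Hatch as deposited and 0.61 higher when rescaled. The deposited median equals the change of miR-1599, read once at 21°C in Hatch only, so it rests on the value given to undetected miRNAs. Over miRNAs read in both stages the median log2 change was 0.84 at 15°C (244 miRNAs) and 0.74 at 21°C (241 miRNAs). For a miRNA read in all 4 libraries, rescaling lowered the change by 0.28 and centring on the median miRNA read in all 8 libraries lowered it by 1.29, and after centring 3 rose (1.02%) and 5 fell (1.69%). With 2 libraries against 2, an exact two-sided permutation test on these libraries alone, without pairing by temperature, cannot go below p = 0.333. The calls thus lean on the spread shared by all miRNAs and stages.

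miR-133a-5p, miR-1a-3p, miR-9b-3p and miR-454 were the 4 miRNAs that rose as deposited. miR-133a-5p comes from a precursor of skeletal and cardiac muscle, and it had 4744 and 2913 reads in the Hatch libraries (15°C and 21°C), against 66 and 42 reads in the 20S libraries. In percent of trimmed reads this was 0.110% and 0.0895% at Hatch and 0.00199% and 0.00164% at 20S, so both Hatch libraries lay far above both 20S libraries. Reads are given as counted, except for the miR-1 values at Hatch noted below. All folds and overlaps are relative to the trimmed reads of the library. It was 55.3-fold higher at 15°C (95% interval 43.4 to 71.7) and 54.6-fold higher at 21°C (40.3 to 75.9), where intervals cover counting error only. The fitted log2 change was 5.78 ± 0.76 (SE, limma adjusted p = 0.0144). As these were whole animals, more cells of a type and more RNA per cell cannot be told apart, here and in every group below.

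miR-1a-3p, the main muscle miRNA of vertebrates, had Hatch values that come to 5163 and 3342 reads, against 80 and 101 reads at 20S. The change was 49.7-fold at 15°C (39.8 to 62.8) and 26.1-fold at 21°C (21.4 to 32.1), with a fitted log2 change of 5.17 ± 0.92 (SE, limma adjusted p = 0.0405). Its Hatch values did not correspond to whole numbers of reads, which was also the case for miR-1a-5p and, at 21°C, for miR-1c. Those values did correspond to whole reads at the depth of the other Hatch library. Whether values were exchanged or repeated between the Hatch libraries was not tested, so their folds and intervals at each temperature are uncertain. How reads were divided among the near-identical miR-1 sequences is not given in the sources used here. Summed over miR-1a-3p, miR-1b and miR-1c, the increase was 49.6-fold at 15°C and 26.1-fold at 21°C, with the same limit.

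miR-9b-3p is a strand of the miR-9 precursors of the developing brain. It had 831 and 680 reads at Hatch, against 21 and 15 reads at 20S, a change of 30.5-fold (19.8 to 49.5) at 15°C and 35.7-fold (21.5 to 64.1) at 21°C. The fitted log2 change was 5.04 ± 0.81 (SE, limma adjusted p = 0.0299). The 4 values fell into 2 tight pairs by stage, at 0.0193% and 0.0209% for Hatch and 0.000632% and 0.000585% for 20S. Summed over miR-9a-3p and miR-9b-3p, the increase was smaller, 6.23-fold at 15°C and 5.14-fold at 21°C.

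miR-454, which shares its seed with miR-130 and miR-301, was the rarest of the 4. It had 11 and 21 reads at Hatch and 0 reads in both 20S libraries, and a count of 0 allows up to 3 reads. Against that limit of 3 reads per library its observed share at Hatch was 2.82-fold higher at 15°C and 5.51-fold higher at 21°C. These folds leave out the counting error of its Hatch reads. Its limma adjusted p was 0.0405. Its call depends on the value given to undetected miRNAs, with adjusted p = 0.0815 when that value was 0.5 read, and it lost significance after centring (adjusted p = 0.0746), with a range of 0.000341 to 0.124 over 14 alternatives.

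These calls were lost whichever of the 15°C and 21°C libraries of Hatch or 20S was left out, which left 1 library for that stage. Why they were lost was not tested. The log2 change of miR-133a-5p stayed between 5.71 and 5.85, that of miR-9b-3p between 4.69 and 5.39, that of miR-1a-3p between 4.53 and 5.81 and that of miR-454 between 4.42 and 6.24. All 4 passed when any library of the other 2 stages of the study, 75% epiboly (75Ep) and metamorphosis climax (Met), was left out.

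Rescaled to the miRNA total, miR-99a-5p, miR-100, miR-125b-5p and miR-223-3p rose as well. miR-99a-5p had 6330 and 6095 reads at Hatch, against 671 and 466 reads at 20S. miR-100 had 802 and 1097 reads at Hatch, against 78 and 64 reads at 20S, and miR-125b-5p had 4961 and 5070 at Hatch and 585 and 501 at 20S. These 3 come from clusters that also hold let-7 in animals, and all their Hatch values exceeded all their 20S values. The rescaled log2 changes were 2.83 ± 0.35 for miR-99a-5p, 3.09 ± 0.44 for miR-100 and 2.57 ± 0.32 for miR-125b-5p (SE, limma adjusted p = 0.0272, 0.0411 and 0.0272). As deposited, their limma adjusted p-values were 0.0888, 0.0888 and 0.108.

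miR-223-3p, a miRNA of myeloid blood cells in mammals and zebrafish, had 1456 and 1185 reads at Hatch, against 164 and 74 reads at 20S. Its rescaled log2 change was 2.93 ± 0.44 (SE, limma adjusted p = 0.0477), and the change as deposited was 3.21 ± 0.76 (adjusted p = 0.0888). Just outside the threshold on the rescaled values were miR-218b and miR-1623, both at a limma adjusted p of 0.05 after rounding, and miR-214-3p at 0.0507. Of the 8 rescaled calls, none passed without the 15°C or the 21°C library of Hatch, 20S or Met (limma adjusted p up to 0.358), and all 8 passed without either 75Ep library.

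**Figure D2:**
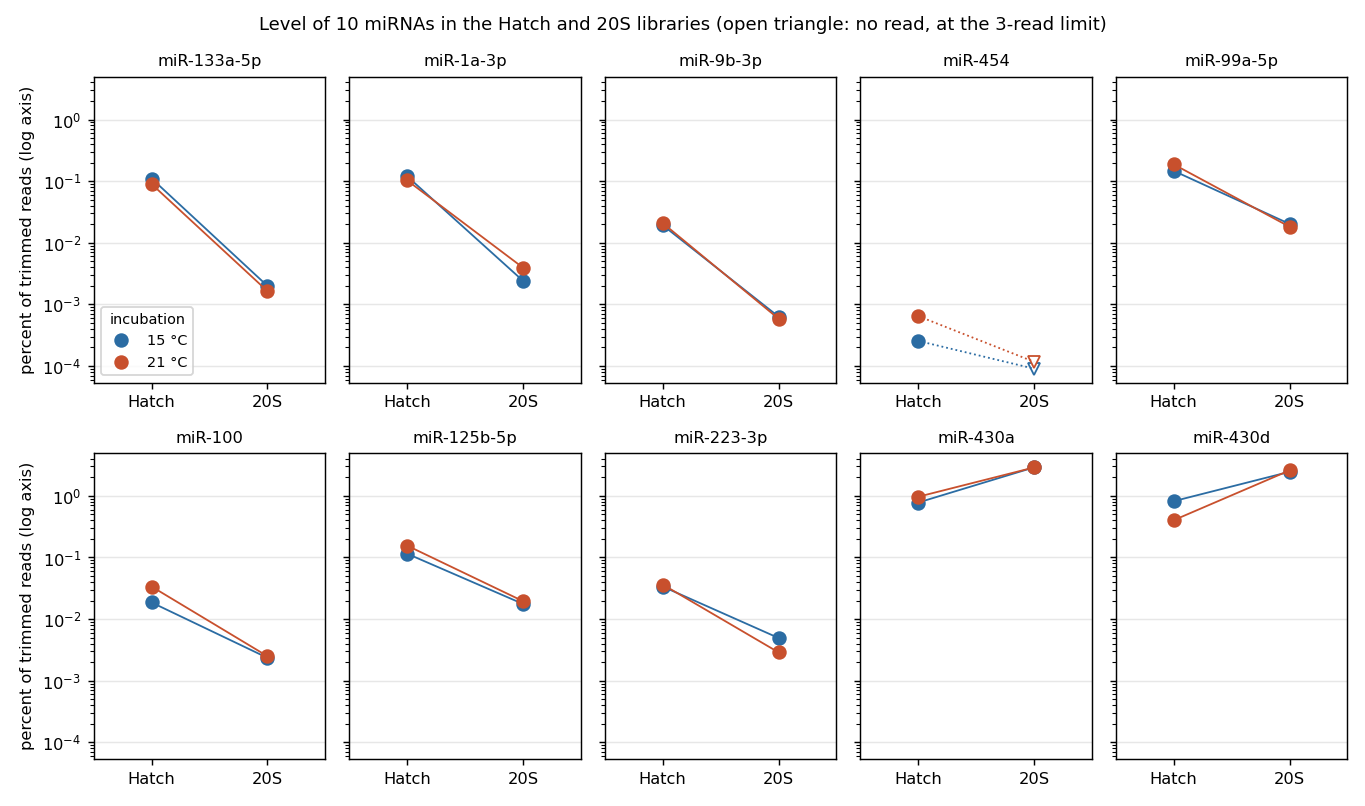
Level of the 8 miRNAs that rose on either scale and of miR-430a and miR-430d, in percent of trimmed reads (vertical log axis), in the Hatch and 20S libraries at 15 °C (blue) and 21 °C (red), with lines joining libraries of a temperature. Open triangles mark the 3-read limit of the 20S libraries in which miR-454 had 0 reads, and the Hatch points lie above the 20S points in the first 8 panels and below them for miR-430a and miR-430d.

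The muscle list held 14 miRNAs, of which 13 were read in the 4 libraries. On the deposited scale 2 rose, miR-133a-5p and miR-1a-3p, and 12 did not pass (0 fell). At an unadjusted limma p under 0.05, 6 of the list were higher and 0 lower. Over all 295 miRNAs tested the numbers were 44 and 3, which is the background for every list below. The median log2 change of the list was 2.01, against 0.80 over all miRNAs, and it was 1.89 rescaled and 0.71 centred. Both Hatch libraries exceeded both 20S libraries for 9 of the 14, against 50.5% of all miRNAs read, and lay below them for 1, against 6.98%.

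miR-206-3p, a skeletal muscle miRNA that promotes myoblast differentiation, was the most abundant of the list. It had 50392 and 47680 reads at Hatch, against 14568 and 4921 reads at 20S, and it moved to rank 4 and rank 6 among the miRNAs of the Hatch libraries, against rank 13 and rank 21 at 20S. It was 2.66-fold higher at 15°C and 7.63-fold higher at 21°C, with 1.17% and 1.46% of trimmed reads at Hatch and 0.439% and 0.192% at 20S. Its fitted log2 change was 2.17 ± 1.04 (SE, limma adjusted p = 0.355).

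miR-499-5p is embedded in a myosin heavy chain gene in vertebrates. It had 278 and 194 reads at Hatch, against 18 and 17 reads at 20S, while the other strand, miR-499-3p, had 257 and 145 at Hatch and 65 and 27 at 20S. miR-133a-3p, the strand known to act in muscle, had 543 and 504 reads at Hatch, against 46 and 42 reads at 20S, 9.09-fold and 9.45-fold higher (limma adjusted p = 0.0888). miR-133b-5p went the other way, with 333 and 133 reads at Hatch and 389 and 244 at 20S (log2 change -0.91 ± 1.24, adjusted p = 0.768). miR-133b-3p had 1460 and 1238 reads at Hatch, against 567 and 451 at 20S, 1.98-fold and 2.16-fold higher. Summed over miR-133a-3p, miR-133b-3p, miR-133c and miR-133d, the increase was 2.51-fold at 15°C and 2.78-fold at 21°C. How reads were divided among these near-identical sequences is not given in the sources used here. miR-1a-5p had Hatch values that come to 530 and 772 reads, against 21 and 6 reads at 20S. miR-1c had 52 reads in the 15°C Hatch library and 1 and 1 at 20S. The same value, 0.00121% of trimmed reads, was deposited for miR-1c in the 21°C Hatch library. miR-133c, miR-133d and miR-206-5p had at most 4 reads in any of the 4 libraries, and miR-1b had 0. With the miR-1 values as deposited, all miR-1 strands together were 43.4-fold higher at 15°C and 30.3-fold higher at 21°C. All miR-133 strands together were 5.10-fold and 4.83-fold higher.

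Neural miRNAs had higher levels at Hatch almost throughout the list. Both Hatch libraries exceeded both 20S libraries for 21 of 26 members, against 50.5% of all miRNAs read, and for 0 members lay below them, against 6.98%. miR-9b-3p rose and 25 did not pass (0 fell). At an unadjusted limma p under 0.05, 9 were higher and 0 lower, against 44 and 3 of all 295 tested. The median log2 change of the list was 1.81 (1.75 rescaled and 0.52 centred). miR-138a had 1225 and 1126 reads at Hatch, against 132 and 140 reads at 20S, with no overlap (log2 change 2.75 ± 0.71, adjusted p = 0.0888). miR-218b, a miRNA of motor neurons, had 727 and 1155 reads at Hatch, against 76 and 72 reads at 20S, and its abundant relative miR-218a had 11323 and 11107 at Hatch and 4657 and 3231 at 20S.

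miR-137a-3p had 76 and 35 reads at Hatch, against 4 and 3 at 20S, and was 14.6-fold higher at 15°C (5.48 to 55.1) and 9.19-fold higher at 21°C (2.90 to 46.7). The other arm, miR-137a-5p, had 114 and 65 reads at Hatch, against 20 and 4 at 20S, 4.39-fold (2.71 to 7.45) and 12.8-fold (4.76 to 48.4) higher, with intervals that overlapped those of miR-137a-3p at both temperatures. miR-219, known from oligodendrocytes, had 274 and 154 reads at Hatch, against 26 and 20 at 20S. miR-153a and miR-153c, which are enriched in brain, were 6.40-fold and 11.7-fold higher at 15°C and 3.25-fold and 6.86-fold higher at 21°C. Smaller changes were measured for miR-124-3p, the most characteristic miRNA of differentiated neurons, with 2526 and 1483 reads at Hatch and 577 and 655 at 20S (log2 change 1.29 ± 1.0, limma adjusted p = 0.564). miR-128 was 2.54-fold and 2.11-fold higher, and miR-7a, found in neurons and endocrine cells, 1.31-fold and 1.14-fold higher.

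In the liver and gut list both Hatch libraries exceeded both 20S libraries for 5 of 6 members, against 50.5% of all miRNAs read, while miR-194b was not read. miR-192, shared by gut, liver and kidney, had 10347 and 6786 reads at Hatch, against 450 and 440 reads at 20S. It was 17.7-fold higher at 15°C (16.1 to 19.5) and 12.1-fold higher at 21°C (11.0 to 13.4), with a log2 change of 3.87 ± 1.0 (SE, limma adjusted p = 0.0888). miR-194a, transcribed together with miR-192 in vertebrates, had 211 and 87 reads at Hatch, against 10 and 13 at 20S. miR-122-5p, the main hepatocyte miRNA, was much rarer, with 159 and 212 reads at Hatch and 11 and 29 at 20S. None of the 6 passed (0 rose, 0 fell), and 5 were higher at an unadjusted limma p under 0.05, against 44 of all 295 tested. Rescaled, 3 were higher at an unadjusted limma p under 0.05, against 45 of all tested. At each temperature 4 of the 6 were read in both stages, so the value given to undetected miRNAs enters these counts. The median change of the list was 3.11 (2.93 rescaled and 1.81 centred).

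The miRNAs of mesenchyme and cartilage had higher values in both Hatch libraries for 8 of 9 members, against 50.5% of all miRNAs read, and the other, miR-199b, was not read. miR-214-3p had 2686 and 2192 reads at Hatch, against 268 and 214 reads at 20S, a change of 7.72-fold and 8.07-fold. miR-199a-5p and miR-199a-3p, from the transcript that also carries miR-214, were 8.75-fold and 8.44-fold higher at 15°C and 7.34-fold and 6.88-fold higher at 21°C. Those 3 strands thus moved by similar amounts, while miR-214-5p was 3.43-fold and 7.86-fold higher. miR-140-3p, a cartilage miRNA, had 3375 and 3176 reads at Hatch, against 1642 and 1119 at 20S, a smaller difference. None of the 9 passed (0 rose, 0 fell), and 3 were higher at an unadjusted limma p under 0.05, against 44 of all 295 tested. The median change of the list was 1.98 (1.70 rescaled and 0.69 centred).

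Blood and vessel miRNAs did not move as a block. Both Hatch libraries exceeded both 20S libraries for 5 of 8 white blood cell miRNAs and 6 of 10 of vessels and smooth muscle. They lay below for 0 of either list, and for red blood cells 0 were above and 2 below of 3. Over all miRNAs read the shares were 50.5% above and 6.98% below. The white blood cell median was 2.09. In that list 3 were higher and 0 lower at an unadjusted limma p under 0.05, against 44 and 3 of all 295 tested. In the white blood cell list miR-223-3p passed on the rescaled values, miR-146a had 93 and 95 reads at Hatch, against 3 and 8 at 20S, and miR-142, a miRNA of all white blood cells, had 15 and 6 reads at Hatch and 0 at 20S. miR-150, a lymphocyte miRNA, had 126 and 54 reads at Hatch, against 147 and 50 at 20S, which overlapped. The red blood cell miRNAs were almost absent, with 10 and 5 reads of miR-451 at Hatch and 10 and 9 at 20S. miR-144-5p, from the same cluster, had 0 reads in both Hatch libraries and 4 and 2 reads at 20S. miR-126a-3p of the endothelium was 5.72-fold and 3.72-fold higher at Hatch, and miR-145 of smooth muscle 3.85-fold and 3.07-fold. miR-143-3p, which shares a cluster with miR-145 in vertebrates, had 603 and 59 reads at Hatch, against 130 and 170 at 20S, 3.57-fold at 15°C and 0.273-fold at 21°C (log2 change -0.02 ± 1.43, limma adjusted p = 1). In the vessel and smooth muscle list 0 of 10 passed, with a median of 1.0 that turned to -0.29 after centring. Only 1 of the 10 was higher at an unadjusted limma p under 0.05, against 44 of all 295 tested.

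The miR-99, miR-100 and miR-125 list had 6 members read, and for all 6 both Hatch libraries exceeded both 20S libraries, against 50.5% of all miRNAs read as deposited and 41.5% rescaled. Its median log2 change was 2.88 (2.60 rescaled and 1.58 centred), and its summed reads were 12737 and 13041 at Hatch against 1487 and 1146 at 20S. let-7, its usual neighbour in animal genomes, was far rarer, with 1186 and 709 reads over 10 members at Hatch and 457 and 415 at 20S. The median of let-7 was 0.94, near that of all miRNAs, and -0.35 after centring. In the Hox cluster list miR-10b had 50046 and 35590 reads at Hatch, against 14941 and 11556 at 20S, and miR-10d 48777 and 40369 at Hatch and 17839 and 11459 at 20S. miR-196b, from more posterior positions in the Hox clusters, had 257 and 205 reads at Hatch, against 390 and 368 at 20S. None of these lists had a member that passed as deposited. At an unadjusted limma p under 0.05, 5, 1 and 0 members were higher in the miR-99, let-7 and Hox lists, against 44 of all 295 tested.

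In the eye and sensory list both Hatch libraries exceeded both 20S libraries for 7 of 9 members, against 50.5% of all miRNAs read, and the median log2 change was 1.02 (0.79 rescaled and -0.27 centred). miR-204, a miRNA of lens and pigmented epithelium, had 64745 and 51832 reads at Hatch, against 31815 and 18720 at 20S, 1.57-fold and 2.18-fold higher. The fitted changes of the 9 eye and sensory miRNAs lay between 0.80 and 1.39 as deposited, but 8 of 9 were negative after centring. At each temperature 8 of the 9 were read in both stages, so the value given to undetected miRNAs enters this range. miR-203a, which limits the proliferation of epidermal cells, had 75746 and 61692 reads at Hatch, against 49509 and 54120 at 20S. Relative to depth it was 1.18-fold at 15°C and 0.898-fold at 21°C, and the median of the 14 skin and epithelial miRNAs was 0.05 as deposited and -0.10 rescaled. None of these 23 miRNAs passed or had an unadjusted limma p under 0.05 as deposited.

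**Figure D3:**
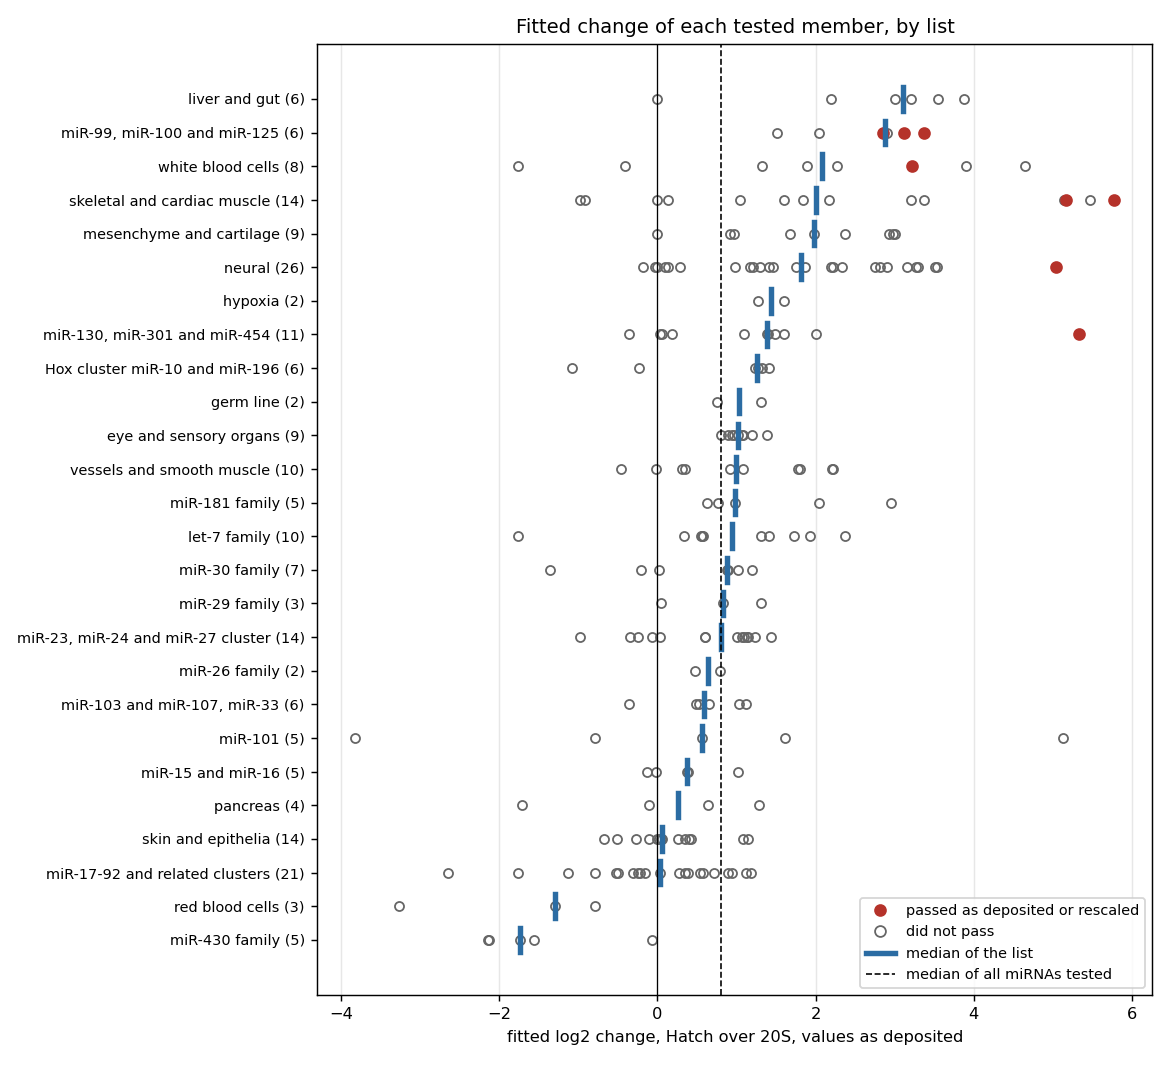
Fitted log2 change of Hatch over 20S as deposited (horizontal axis) for each tested member of 26 lists, ordered by the median of the list (blue bar), with the number tested in parentheses. Filled red points passed as deposited or rescaled, open points did not, and the dashed line is the median of all 295 miRNAs at 0.80, with liver and gut at 3.11 and the miR-430 family at -1.74 at the ends.

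In the miR-430 family 4 of the 5 members were lower in both Hatch libraries than in both 20S libraries, against 6.98% of all miRNAs read, and 0 were higher in both. miR-430a had 33605 and 31505 reads at Hatch, against 96358 and 74207 reads at 20S, which is 0.779% and 0.967% of trimmed reads at Hatch and 2.90% and 2.89% at 20S. It was thus 3.72-fold and 2.99-fold lower at Hatch. miR-430d was 3.00-fold lower at 15°C and 6.42-fold lower at 21°C, with 35364 and 13124 reads at Hatch and 81629 and 66383 at 20S. miR-430c had 5083 and 2204 reads at Hatch, against 9872 and 5974 at 20S, and the rare miR-430e 42 and 11 at Hatch and 85 and 64 at 20S.

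miR-430a ranked 11 and 10 in the Hatch libraries and 2 in both 20S libraries. As deposited the log2 changes were -1.74 ± 0.92 for miR-430a, -2.13 ± 0.79 for miR-430d and -1.56 ± 0.69 for miR-430c (SE, limma adjusted p = 0.404, 0.215 and 0.302), and none passed when rescaled (0 fell, 3 lower at an unadjusted p under 0.05). After centring on the median miRNA, miR-430a, miR-430d and miR-430c fell by 3.03, 3.43 and 2.85 (limma adjusted p = 0.0407, 0.0407 and 0.0447). Over 14 alternatives that did not leave out a single library these adjusted p-values ranged from 0.000310 to 0.456, and each of the 3 passed in 2, centring and the fit to the 4 libraries alone. The other 2 miRNAs that fell after centring were miR-21 and miR-144-5p. miR-144-5p had 0 reads in both Hatch libraries and 4 and 2 at 20S, so its change depended on the value given to undetected miRNAs. Over 13 alternatives its log2 change ranged from -33.2 to -0.28, with limma adjusted p from 0.00436 to 0.851. For miR-21 the limma adjusted p ranged from 0.00316 to 0.611 over 14 alternatives, of which it passed 2. miR-21, a broadly expressed miRNA, had 1272 and 1036 reads at Hatch, against 2522 and 1679 at 20S.

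The miR-17-92 list, whose miRNAs are known for promoting cell proliferation, had 21 members and a median change of 0.03 as deposited, -0.25 rescaled and -1.26 centred. Both Hatch libraries lay above both 20S libraries for 7 members and below them for 3, against 50.5% and 6.98% of all miRNAs read. Rescaled, these numbers turned to 4 and 8, against 41.5% and 12% of all miRNAs read. miR-93 had 7018 and 6437 reads at Hatch, against 7998 and 7136 at 20S, 0.676-fold and 0.710-fold, while miR-19a-5p was 2.14-fold and 2.42-fold higher with 411 and 320 reads at Hatch and 148 and 104 at 20S. miR-19b-3p, among the 10 most abundant miRNAs, had 42530 and 20948 reads at Hatch, against 21128 and 15804 at 20S. None of the 21 passed, and none had an unadjusted limma p under 0.05 as deposited.

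In this list 4 closely related sequences did not keep their proportions at Hatch. miR-20a-5p had 20229 and 416 reads at Hatch, against 16240 and 12402 at 20S, so the low value was confined to the 21°C Hatch library. In that library miR-17a-5p had 48511, miR-106a 3472 and miR-20b 3321 reads, against 21294, 759 and 1025 in the 15°C Hatch library. Summed over the 4 miRNAs the Hatch libraries had 43307 and 55720 reads and the 20S libraries 62025 and 48487, a change of 0.538-fold at 15°C and 0.905-fold at 21°C. Values of these 4 miRNAs taken alone are uncertain, since the division of reads among near-identical sequences is not given in the sources used here.

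miR-130c was the most abundant miRNA in all 4 libraries. It had 102949 and 206311 reads at Hatch, against 132906 and 75558 at 20S, which is 2.39% and 6.34% of trimmed reads at Hatch and 4.0% and 2.95% at 20S. Its relative miR-301c was higher in both Hatch libraries, with 47144 and 56287 reads against 18292 and 12617 at 20S. In the miR-130 group 1 of 11 members rose, miR-454, and the median was 1.39 (1.11 rescaled and 0.09 centred). The miR-181 family, studied in myoblast differentiation, had 10181 and 12980 reads of miR-181a-5p at Hatch and 1869 and 2513 at 20S, 4.19-fold and 4.07-fold higher (log2 change 2.05 ± 0.79, limma adjusted p = 0.235).

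In the list of 7 miRNAs chosen for qPCR, 0 passed as deposited or rescaled (2 higher at an unadjusted limma p under 0.05 as deposited). Besides those described above the list held miR-26a and miR-181a-3p. miR-26a, a miRNA that increases with differentiation in mammalian muscle, had 9904 and 8612 reads at Hatch, against 5704 and 4685 at 20S. miR-181a-3p had 24152 and 9795 reads at Hatch, against 8017 and 4615 at 20S. The Hatch values of both were above the 20S values relative to depth, by 1.34-fold and 1.45-fold for miR-26a and by 2.32-fold and 1.67-fold for miR-181a-3p.

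The 11 remaining lists, from miR-15 with miR-16 to the miRNAs of pancreas, hypoxia and the germ line, held 0 miRNAs that passed on either scale, and their medians lay between 0.27 and 1.44. At an unadjusted limma p under 0.05 as deposited 2 miRNAs of the miR-181 family and 1 miR-101 were higher in them and 0 lower. miR-103a-3p, known from lipid and glucose metabolism in mammals, had 18573 and 16339 reads at Hatch, against 8141 and 5387 at 20S, and the 6 miRNAs of its list had a median change of 0.59. In the miR-23, miR-24 and miR-27 cluster, of vessels and muscle, miR-23a-3p was 2.53-fold and 1.95-fold higher, and the median of the 14 was 0.80 (0 passed, and 0 had an unadjusted limma p under 0.05). miR-30c was 2.39-fold and 1.40-fold higher, with a median of 0.87 over the 7 members of the miR-30 family. miR-16b, a miRNA that restrains the cell cycle, had 9020 and 10147 reads at Hatch, against 8386 and 3938 at 20S, and the median of miR-15 and miR-16 was 0.37.

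miR-29b, which targets collagen mRNAs, was 0.949-fold and 1.13-fold at Hatch, and the median of the miR-29 family was 0.83. miR-210-5p, from a precursor induced by low oxygen, had 346 and 1094 reads at Hatch, against 169 and 148 at 20S, and thus stood out in the 21°C Hatch library. miR-375 of endocrine pancreas had 3271 and 2754 reads at Hatch, against 2328 and 2722 at 20S, and the median of the 4 pancreas miRNAs was 0.27. miR-202-5p, a gonad miRNA in fish, had 29 and 85 reads at Hatch, against 16 and 33 at 20S. All 11 medians but that of hypoxia (0.14) were negative after centring.

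Among skin miRNAs the members differed. miR-200b-3p was higher in both Hatch libraries, with 3901 and 2605 reads at Hatch, against 1535 and 903 at 20S. miR-205-5p had 22275 and 13130 reads at Hatch, against 8589 and 11389 at 20S, 2.0-fold higher at 15°C and 0.908-fold at 21°C. miR-203b-3p was 0.964-fold and 0.888-fold.

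The change could also be read separately at each temperature, from 1 Hatch and 1 20S library. Of the 189 miRNAs with at least 50 reads over the 4 libraries and a read in each, 128 were higher at Hatch at both temperatures, 22 were lower at both and 39 went in opposite directions. Rescaled, the numbers were 109, 38 and 42. At least a 2-fold increase at both temperatures was found for 57 of them and at least a 2-fold decrease for 5. Increases of at least 8-fold at both numbered 11 (7 rescaled), and there were 0 such decreases. No test was possible within a temperature.

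The 11 included muscle miR-1a-3p, miR-1a-5p, miR-1c, miR-133a-5p, miR-133a-3p and miR-499-5p, neural miR-9b-3p, miR-137a-3p and miR-137b, and miR-192 and miR-146a. miR-137b had 123 and 70 reads at Hatch, against 10 and 4 at 20S. miR-1c rested on 1 read in each 20S library and on the same deposited value in both Hatch libraries. The size of its change is thus poorly determined, and its Hatch values at the 2 temperatures are not independent. The miR-1a values at Hatch have the limit given above. At the other end, the decreases of at least 2-fold at both temperatures were those of miR-430a, miR-430c, miR-430d, miR-430e and miR-21.

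The largest disagreement between temperatures, that of miR-147b, came from a library that stood apart. miR-147b had 24 and 8 reads at Hatch, against 5 and 1924 reads at 20S, the last at 21°C. miR-148, a relative of miR-152 that was noticed after its values were seen, had 4047 and 2335 reads at Hatch, 1681 in the 15°C library of 20S and 0 in the 21°C library. Summed, miR-147b and miR-148 had 4071 and 2343 reads at Hatch, against 1686 and 1924 at 20S, a change of 1.86-fold and 0.959-fold. miR-3975 stood apart in the same library, with 2 and 3 reads at Hatch and 2 and 61 at 20S. Whether the 20S reads of the 2 names were exchanged at 21°C was not tested.

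miR-9a-5p, the main strand of miR-9, had 653 and 19 reads at Hatch, against 55 and 142 at 20S, 9.14-fold higher at 15°C and 0.105-fold at 21°C. The opposite strand miR-9a-3p had no such gap, with 1015 and 822 reads at Hatch and 207 and 215 at 20S. miR-101b-5p had 287 and 1 reads at Hatch, against 259 and 134 at 20S, whereas miR-101a-5p, also chosen after its values were seen, had 5 and 104 at Hatch and 1 and 0 at 20S. miR-9a-5p, miR-101b-5p and miR-20a-5p were thus all low in the 21°C Hatch library.

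**Figure D4:**
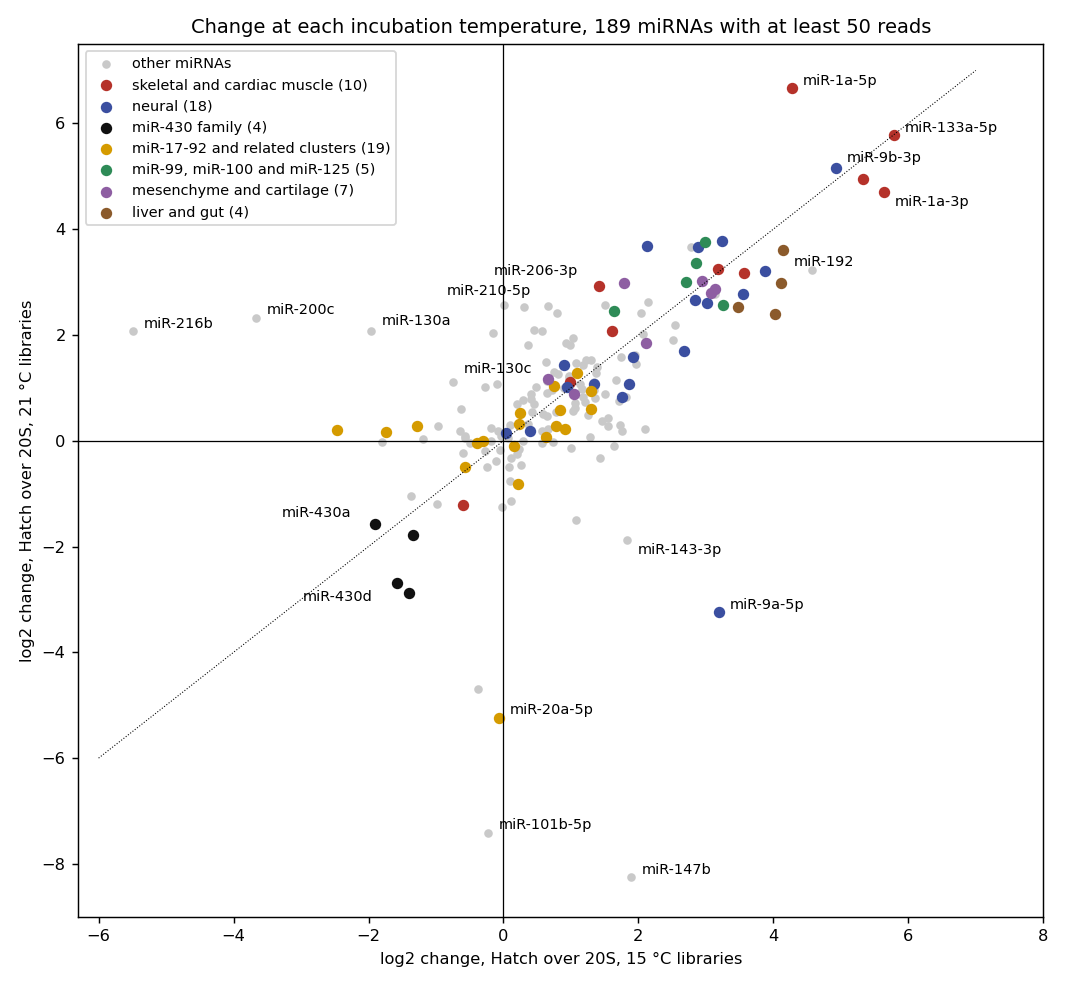
Log2 change of Hatch over 20S at 15 °C (horizontal axis) and at 21 °C (vertical axis) for 189 miRNAs with at least 50 reads over the 4 libraries and a read in each, coloured by list, with a dotted line of equal change. Most points lie in the upper right (128 of 189), the miR-430 family lies in the lower left, and miR-147b, miR-101b-5p, miR-20a-5p, miR-9a-5p, miR-216b and miR-200c lie far from the line.

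Detection in 1 stage only was limited to rare miRNAs. In both Hatch libraries and neither 20S library 11 miRNAs were read, and the most abundant of them, miR-454, had 32 reads in all. After miR-454 came miR-142, and miR-71 with 15 and 1 reads, miR-1623 with 6 and 8, miR-5119 with 4 and 8 and miR-489 with 5 and 2 reads at Hatch. In both 20S libraries and neither Hatch library 3 were read, miR-144-5p, let-7i and miR-4502, with at most 6 reads in all. A miRNA without a read can hold up to 3 reads, 6.96e-05% and 9.21e-05% of the Hatch libraries and 9.04e-05% and 0.000117% of the 20S libraries, so absence cannot be claimed at this depth.

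The use of the 2 strands of a precursor is a ratio within a library and does not depend on the scaling. Among 46 pairs with at least 50 summed reads in each of the 4 libraries, the share of the 5p strand was above both 20S values in both Hatch libraries for 5 pairs and below them for 8, and overlapped for 33. The 95% binomial (exact) intervals of all 4 libraries were separated by stage for miR-133a and miR-133b. For miR-133a the 5p strand made up 89.7% and 85.3% at Hatch (intervals 88.9 to 90.5 and 84.0 to 86.4), against 58.9% and 50% at 20S (49.2 to 68.1 and 38.9 to 61.1). For miR-133b it made up 18.6% and 9.70% at Hatch (16.8 to 20.5 and 8.19 to 11.4), against 40.7% and 35.1% at 20S (37.6 to 43.9 and 31.6 to 38.8).

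The shift was therefore towards 5p in miR-133a and towards 3p in miR-133b, although both precursors yield muscle miRNAs of nearly the same sequence, whose reads may have been divided between the names. In miR-124 the 5p share was 52.9% and 43.7% at Hatch and 78.7% and 55.4% at 20S, lower by stage at either temperature. Which strand moved depends on the scale. As deposited miR-124-5p was 1.03-fold and 1.11-fold at Hatch and miR-124-3p 3.37-fold and 1.78-fold. Rescaled, miR-124-5p was 0.952-fold and 0.812-fold and miR-124-3p 3.13-fold and 1.30-fold. After centring the fitted log2 change was -1.20 for miR-124-5p and 0.0007 for miR-124-3p. In miR-27b the 5p share was 12.7% and 16.7% at Hatch and 26.4% and 31.7% at 20S. In miR-181a the libraries overlapped by stage, with 29.7% and 57% at Hatch and 18.9% and 35.3% at 20S, and the 21°C library had the higher 5p share in both stages.

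**Figure D5:**
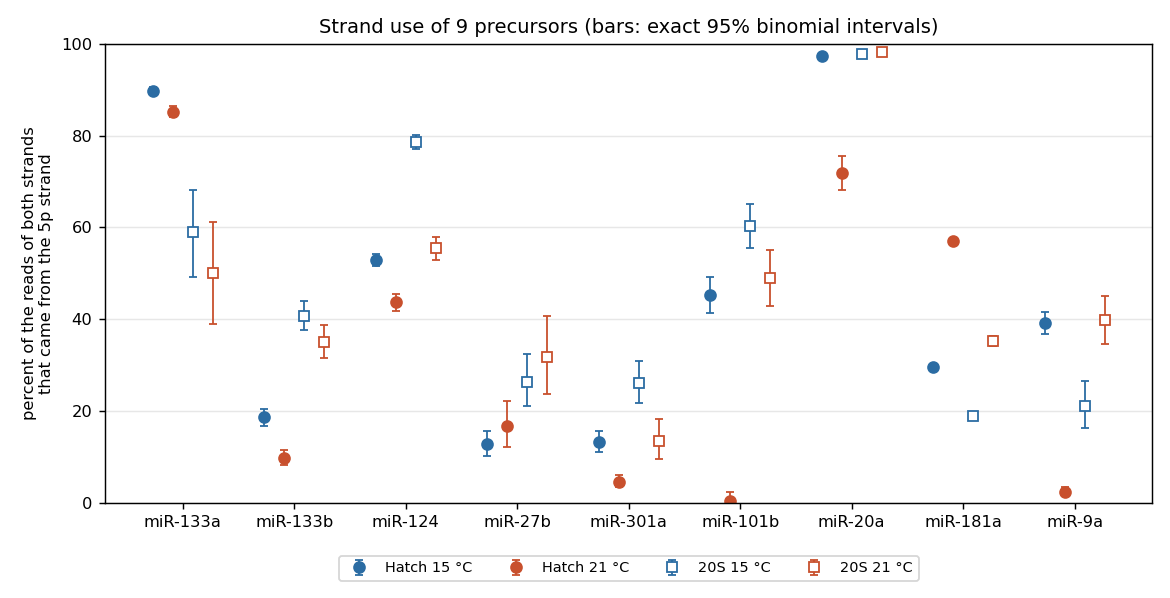
Percent of the reads of both strands that came from the 5p strand (vertical axis) for 9 precursors, in the Hatch libraries (filled circles) and 20S libraries (open squares) at 15 °C (blue) and 21 °C (red), with exact 95% binomial intervals that cover counting error only. In miR-133a the Hatch values of 89.7% and 85.3% lie above the 20S values of 58.9% and 50%, and in miR-133b those of 18.6% and 9.70% lie below 40.7% and 35.1%.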

How the data were processed

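The deposited table gives each miRNA as log2 values, made by the authors from SOLiD reads that were trimmed, cleared of other small RNAs by BLAST and mapped against miRBase. The log2 is of the percent of trimmed reads, and an undetected miRNA is deposited as -46.51. Reads were recovered from the steps between low values, and 99.5% of 2033 values above the lowest were whole within 0.01 read, with 10 exceptions in 6 miRNAs. Values under 1 read counted as undetected and entered the fit at -16.60, 1 log2 unit below the smallest 1-read value, with the like on the rescaled values. Library depth was 2169069 to 4965849 trimmed reads over the 8 libraries.

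limma 3.58.1 (R 4.3.3) was fitted to all 8 libraries with stage and temperature as terms and a variance trend, leaving 3 residual degrees of freedom. Temperature paired the libraries, as the labels give it. Libraries of a stage were separate pools, and p-values measure only the spread left after the stage and temperature terms. In that spread, a temperature effect that differs between stages cannot be told apart from variation between pools. Fold intervals within a temperature are exact conditional binomial intervals at 95%, and tables and figures were made in Python 3.11.15.

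The miRNAs, the 27 lists and the tests were chosen with earlier results of these data known. Selected for naming were miRNAs that passed on either scale and the 12 largest increases and decreases shared by both temperatures (at least 50 reads). The 10 most abundant per library, the 6 largest opposite changes, the 6 most read in only 1 stage and the qPCR miRNAs were added. So were the most read member of each list and all members of the muscle, neural, skin, miR-17-92 and miR-430 lists. Not all of those selected are described in the text. Other miRNAs named from the lists, such as miR-214-3p, miR-199a-3p, miR-194a, miR-122-5p, miR-126a-3p, miR-145, miR-27b and let-7 relatives, were chosen after their values were seen. No sequences or positions are given.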

Additional observations from a re-analysis of the deposited data

Results flagged for a closer look

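For 16 named miRNAs the change at 15°C and the change at 21°C went in opposite directions with counting intervals on opposite sides of 1, and the gap (log2 change at 21°C minus that at 15°C) is given for each. With 1 library per stage and temperature the difference was not tested. The most negative gaps were those of miR-147b (-10.14), miR-9a-5p (-6.44) and miR-143-3p (-3.71), the last a smooth muscle miRNA with 603 and 59 reads at Hatch and 130 and 170 at 20S. Smaller negative gaps were found for miR-205-5p (-1.14), miR-20a-3p (-1.03), miR-375 (-0.44), miR-203a (-0.39) and miR-18c (-0.27).

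The most positive gaps were those of miR-216b (7.56), a pancreas miRNA with 2 and 144 reads at Hatch and 69 and 27 at 20S, miR-200c (5.98), an epithelial miRNA with 12 and 19 at Hatch and 117 and 3 at 20S, and miR-130a (4.04), with 11 and 43 at Hatch and 33 and 8 at 20S. They were followed by miR-106a (2.66), miR-20b (1.89), miR-130c (1.85), miR-17a-5p (1.57) and miR-16b (1.29). miR-130c alone held 206311 reads in the 21°C Hatch library.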

How the results depend on the processing

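The count of miRNAs that passed (4 rose, 0 fell) depended on the fit. It was 8 rescaled (8 rose), 8 centred (3 rose, 5 fell), 1 with a pseudocount of 10 reads, 108 with only the 4 libraries of Hatch and 20S (97 rose, 11 fell, with 1 residual degree of freedom and spread pooled over miRNAs), and 2 with limma-voom. Without pairing by temperature it was 7. Chosen after the data were seen, it was 2 without the miRNAs whose values are not whole reads and 15 with undetected values as deposited (12 rose, 3 fell). Leaving out each of the 8 libraries in turn gave 0 to 33, with 33 without either 75Ep library, 13 and 12 without Met at 15°C and 21°C, and 2 without 20S at 15°C, where miR-148 and miR-147b passed. A stage left with 1 library is assumed to vary like the others. On the rescaled values the 8 became 36 with only the 4 libraries (32 rose, 4 fell), 0 without both Met libraries, and 0 to 33 without each library. The cause was not tested.

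The 127 miRNAs selected for naming had 2748 values under the alternatives. Of these values, 0 reversed a called direction, 2470 kept direction and call, 27 lost a call, 127 gained one and 124 uncalled changes changed sign. miR-133a-5p passed in 14 of 14 alternatives that did not leave out a single library, miR-9b-3p in 13 of 14, miR-1a-3p in 10 of 13 and miR-454 in 7 of 14.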
